A study of Mus musculus with 4 samples.

Results

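The Notch pathway genes described here are the receptors Notch1, Notch2 and Notch3, the ligands Jag1, Dll1, Dll3 and Dll4, and the target genes Hes1, Hey1 and Heyl. These 10 genes were listed by name, with earlier results of these data known, and all 10 were among the 21495 genes of the single-cell count table. Their levels were followed in the cell types of the mouse embryonic gonad and the attached mesonephros, the transient kidney beside it, around the stage of sex determination. Droplet-based single-cell RNA-seq had been performed on 4 samples, each a pool of several pairs of gonads with mesonephros. XY KO embryos, taken at E11.5 and E11.75, carried a homozygous CRISPR deletion of the miR-17~92 microRNA cluster and grew from edited stem cells through tetraploid complementation, in which the stem cells form the embryo proper. XY control embryos at E11.5 were grown in the same way from the unedited parental stem cell line. XX control embryos at E11.5 came from breeding, and all groups were labelled as C57BL/6 x 129S4/SvJae. The KO embryos thus carry the deletion in all embryonic cells and go back to 1 parental stem cell line. These XY KO samples are named the E11.5 KO and the E11.75 KO. Each group being a single sample, conditions could not be tested against each other and no p-value is given.

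Notch signalling passes between cells that touch. A membrane-bound ligand on one cell binds a receptor on its neighbour, proteases free the intracellular part of the receptor, and this part enters the nucleus, joins the DNA-binding protein RBPJ and switches on genes such as those of the HES and HEY families of transcriptional repressors. In vessels, Dll4 and Notch1 act in arterial cells and in the choice between tip and stalk cells, in nephron precursors Jag1, Dll1 and Notch2 act in patterning the tubule, and in the early gonad Notch signalling is known for keeping interstitial progenitors from becoming Leydig cells.

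The deletion removes 6 microRNA genes. The mature sequences shown, 1 for each gene, fall into 4 families by seed, bases 2 to 8 of the mature sequence. They are shown first because the groups differ in these genes. Whether other genes make the same mature sequences or seeds was not examined. The sequences are those of RefSeq on GRCm38.p6, 5′ to 3′ with the seed in capitals, and all lie on the plus strand of chromosome 14 between 115043684 and 115044496.
mmu-miR-17-5p: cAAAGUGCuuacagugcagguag
mmu-miR-20a-5p: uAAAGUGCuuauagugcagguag
mmu-miR-18a-5p: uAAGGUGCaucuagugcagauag
mmu-miR-19a-3p: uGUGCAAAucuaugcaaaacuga
mmu-miR-19b-3p: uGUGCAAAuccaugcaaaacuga
mmu-miR-92a-3p: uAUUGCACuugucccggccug
Sites for these seeds were looked for in the longest annotated 3′ UTR of each gene (GENCODE M21, mm10). A site of 8 bases pairs with the whole seed and has an A opposite base 1, and a site of 7 bases lacks 1 of these 8. Of the 10 genes, 4 had a site, as did 43.3% of the 17305 genes with a 3′ UTR. Notch2 alone had a site of 8 bases, a kind held by 12.3% of all genes. The sites are printed on the strand of the gene, with the site in capitals.
Notch1, miR-92 family, chr2:26457938-26457944, minus strand: gttaactaattTGCAATAaaaatgatact
Notch2, miR-18 family, chr3:98148174-98148181, plus strand: cttctgaacctGCACCTTAatttctctccc
Jag1, miR-17 family, chr2:137082108-137082114, minus strand: cttgatagcatCACTTTAagtttaagaca
Dll4, miR-17 family, chr2:119335887-119335893, plus strand: tgttcctactcCACTTTAagttccatggg
Notch3, Dll1, Dll3, Hes1, Hey1 and Heyl had no match in this UTR. A match is a description of the letters and not evidence of repression.

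The samples held 23527, 17057, 8492 and 3669 cells in the XY control, the E11.5 KO, the E11.75 KO and the XX control, the order used throughout, and 37841392 to 105192238 UMIs (unique molecular identifiers, 1 for each captured RNA). The study's methods list the cell numbers of the KO samples with the stages exchanged. The sample labels, the endings of the cell names and the deposited annotation all give the assignment used here, and the last of these match for 52745 of 52745 cells. The largest share of beta globin UMIs in any cell was 0.388% in the E11.5 KO and 0.724% in the E11.75 KO. The upper limits on this share that the methods set by stage lie just above these values under the assignment used here, and with the stages exchanged the limit for E11.5 would be exceeded. The median XX cell held 15509 UMIs against 3893 to 4763 in the XY samples, and the authors applied upper limits per cell to XY cells only. Levels are given as CPM, in which the UMIs of a gene are divided by all UMIs of a cell type and sample and scaled to a common total. All intervals are 95% intervals and cover counting error only. Mir17hg, the host transcript of the deleted cluster, stood at 19.8 CPM in the XY control, 156 in the E11.5 KO, 161 in the E11.75 KO and 18.2 in the XX control; gene counts cannot separate the deleted part of the transcript from the rest, so this does not check the labels. The cell type names, all but that of mesonephric epithelium, were checked against marker lists. In 11 of 12 lists the summed level was highest in the named type in all samples with at least 50 of its cells. No list was made for mesonephric epithelium. The list for pre-supporting cells, the precursors of Sertoli and granulosa cells, was highest there in 1 of 4 samples and in supporting-like cells in the others. Cells deposited as supporting and read here as Sertoli cells numbered 752, 24, 168 and 2. Types with fewer than 50 cells in a sample were left out of comparisons.

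The receptor Notch1 was highest in endothelial cells in 4 of 4 samples, and its interval there lay apart from that of the next type each time. Endothelial Notch1 stood at 157 CPM in the XY control, 177 in the E11.5 KO, 233 in the E11.75 KO and 99.0 in the XX control. The XX value was the lowest and that of the E11.75 KO the highest. Mesonephric tubules followed in the XY samples, with Notch1 at 89.0, 109 and 86.3 CPM. In the XX control, immune cells at 41.3 CPM and tubules at 38.2 came next, with overlapping intervals. In the gonadal types of the XY control Notch1 was low, with 2.79 CPM in pre-supporting cells, 4.36 in coelomic epithelium, the surface layer of the gonad, and 16.4 in Sertoli cells.

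Notch2 was spread more evenly. In the XY control it ranged from 9.66 CPM in endothelial cells to 75.4 in Sertoli cells, and Sertoli cells, mesonephric mesenchyme at 75.3 and mesonephric tubules at 73.3 could not be ordered within their intervals. Its highest type changed between samples. Endothelial Notch2 was 9.66, 5.61, 11.6 and 10.1 CPM, so that endothelial cells were among the lowest types for Notch2 and the highest for Notch1.

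Notch3, which in vessels is a receptor of mural cells (the smooth muscle cells and pericytes around the vessel), was highest in mesonephric mesenchyme in 4 of 4 samples. It stood there at 71.2 CPM in the XY control, 81.6 in the E11.5 KO, 85.3 in the E11.75 KO and 48.7 in the XX control. The XX control was the lowest, and its interval overlapped with none of the others. In the E11.75 KO the interval overlapped with that of mesonephric tubules at 71.2 CPM. Mesonephric tubules came next in the XY control at 59.3 CPM and germ cells last at 4.73.

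Of the ligands, Dll4, the vascular Delta-like ligand, was almost confined to endothelial cells, at 50.3 CPM in the XY control, 78.9 in the E11.5 KO, 93.0 in the E11.75 KO and 30.3 in the XX control. Among types with at least 50 cells, its highest level elsewhere was 2.90 CPM, in adrenosympathetic cells of the XY control from 7 UMIs. With each cell thinned to 3000 UMIs, 13.9% of XY control endothelial cells held a Dll4 UMI (interval 11.3 to 16.9%), against 0 of 1861 coelomic epithelial cells, for which a limit of 3 cells allows up to 0.161% of cells with a UMI. Cells under 3000 UMIs were left out, 264 endothelial and 354 epithelial ones, the median depths being 4796 and 4613 UMIs. Unthinned, the shares were 19.0% and 0.0451%.

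Jag1, a ligand of the Serrate type, was highest in mesonephric tubules in 4 of 4 samples, with an interval apart from the next type. Tubule Jag1 stood at 146 CPM in the XY control, 227 in the E11.5 KO, 128 in the E11.75 KO and 63.8 in the XX control. Mesonephric mesenchyme held 49.7, 32.0, 68.2 and 37.5 CPM. The samples took a different order in these tissues, since the E11.5 KO was the highest in tubules and the lowest in mesenchyme.

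Dll1 had 3 sites of similar level in the XY control: 23.6 CPM in adrenosympathetic cells, 18.4 in endothelial cells and 18.2 in mesonephric tubules, with overlapping intervals. In every other type of that sample it was at or under 6.02 CPM. Dll3, a Delta-like protein known to act inside the cell that makes it rather than as an activating ligand, was highest in adrenosympathetic cells in 4 of 4 samples. It stood there at 159 CPM in the XY control, 85.7 in the E11.5 KO, 110.2 in the E11.75 KO and 71.1 in the XX control. The next type in the XY control, Sertoli cells, held 9.87 CPM.

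Of the targets, Hes1 was highest in mesonephric tubules in 4 of 4 samples, at 167, 191, 189 and 167 CPM, and the values of the XY and XX controls did not differ within their intervals. In the XX control the interval overlapped with that of interstitial progenitors at 162 CPM. Germ cells had the lowest Hes1 in every sample, 12.2 CPM in the XY control, 10.3 in the E11.5 KO, 18.6 in the E11.75 KO and 11.1 in the XX control. Hey1 had another pattern: germ cells were among its highest types, at 52.4, 47.9, 57.1 and 41.0 CPM. Hey1 in pre-supporting cells was 47.8, 54.7, 44.0 and 51.6 CPM, and the XY control's Sertoli cells held 53.7, so these types could not be ordered in that sample. Heyl was highest in adrenosympathetic cells in 4 of 4 samples, at 26.5, 32.3, 19.2 and 12.9 CPM. Its interval lay apart from that of the next type in the XY control and the E11.5 KO, and overlapped in the other samples. In endothelial cells Heyl was at 1.28 CPM in the XY control from 7 UMIs and at 0 in the E11.5 KO, where 3 UMIs would be 0.935 CPM.

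**Figure D1:**
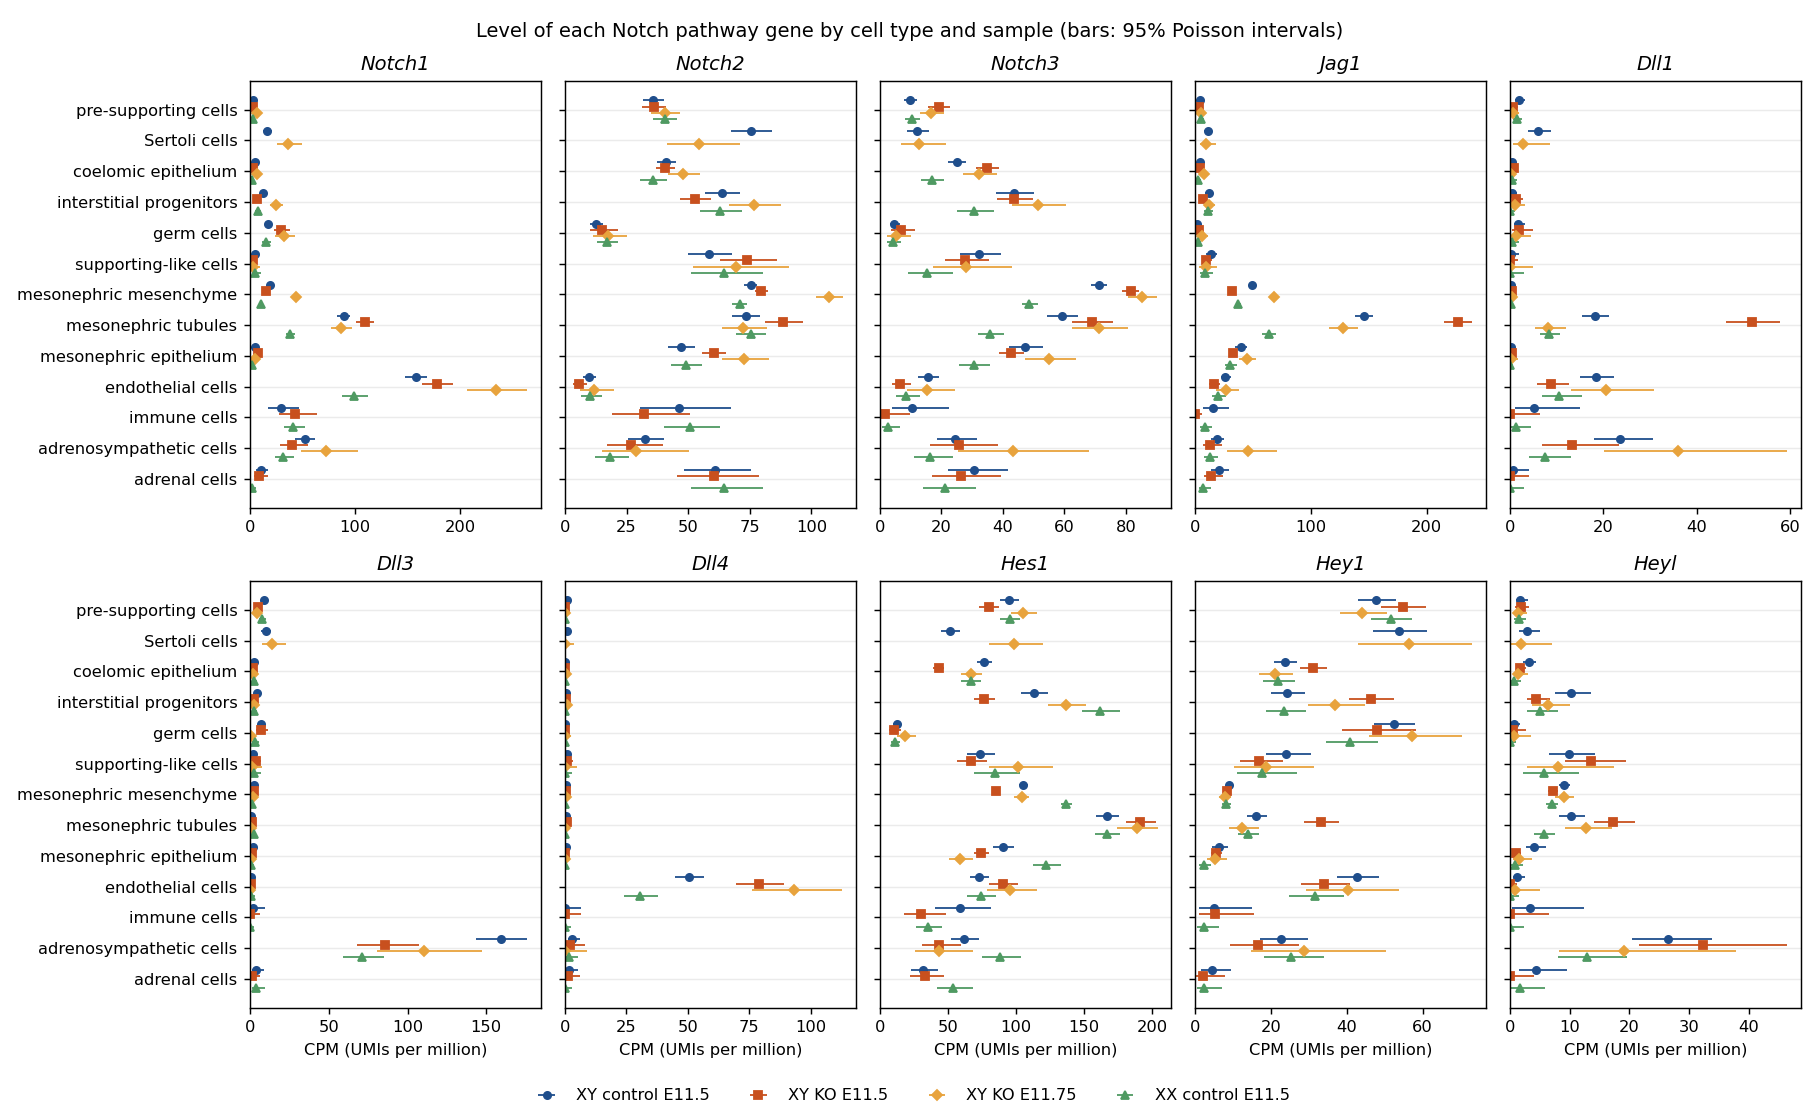
Level of each gene in CPM (x axis, linear, starting at 0) by cell type (y axis) in the 4 samples, for types with at least 50 cells; bars are 95% Poisson intervals. Notch1 and Dll4 peak in endothelial cells, Jag1 in mesonephric tubules and Dll3 in adrenosympathetic cells in all 4 samples.

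Among 13155 genes with at least 500 UMIs over all samples, the one with the highest Pearson's r to Notch1 was Nrarp, which encodes an ankyrin repeat protein that Notch induces and that limits Notch signalling. Likeness was Pearson's r of log2(CPM + 1) over 48 sums, 1 for each cell type and sample with at least 50 cells. The sums share libraries and depth and are not independent, so these values are descriptions. For Notch1, Nrarp had r = 0.83, Abcc4 0.82 and Rapgef5 0.81, while by Spearman's rho Nrarp at 0.73 was below Abcc4 at 0.80 and Rapgef5 at 0.78. Dll1 was also most like Nrarp, at 0.86, followed by Ccser1 at 0.81 and Bbc3 at 0.78. Dll4 was most like 8430408G22Rik, Gpihbp1 and Sox7, at 0.94, 0.94 and 0.93, although Spearman's rho over the same sums was 0.46, 0.35 and 0.31. The last of these encode a lipase anchor of capillaries and an endothelial transcription factor. Dll3 was most like Insm1, Ndufa4l2 and Tubb3, at 0.89, 0.87 and 0.87, with Spearman's rho at 0.56, 0.57 and 0.51. Jag1 was most like Hoxb3, Dach1 and Hoxb2, at 0.87, 0.87 and 0.86. For the other receptors, Notch2 was most like Speg, Itgav and Ptpn13 (0.84, 0.84 and 0.82) and Notch3 like Zfp523, Fzd2 and Lrfn3 (0.92, 0.91 and 0.91). For the targets, Hes1 was most like Cyr61, Ube2r2 and Sall2 (0.87, 0.86 and 0.86), Hey1 like Mtcl1, Dmrt1 and Klf8 (0.78, 0.71 and 0.70) and Heyl like Dcx, Cdh6 and Cntfr (0.86, 0.86 and 0.82).

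The first comparison asked how the levels differed at E11.5 between XY embryos with and without the cluster. A gene in a cell type entered a comparison if the samples compared held 100 or more of its UMIs together, and it is called higher or lower from a fold of 1.5. Of 120 pairs of gene and type, 54 entered and 66 did not. The E11.5 KO was higher in 9 pairs and lower in 7, and 38 stayed within the fold. Over all genes, 2.11% of 98295 pairs were higher and 5.13% lower. The median log2 ratio of the 54 pairs was -0.01, and that of all genes ran from -0.13 to 0.02 over the types.

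Tubules held 4 of the 9 higher pairs, out of 8 genes that entered and against 2.48% higher and 6.05% lower among all genes there. Dll1 stood at 18.2 CPM in the XY control and 51.8 in the E11.5 KO, which was 2.84-fold (interval 2.35 to 3.45), the largest ratio of all 54 pairs. Its values in the other samples were 8.28 CPM in the E11.75 KO and 8.47 in the XX control, so the E11.5 KO stood alone above the other 3. Jag1 was 1.56-fold higher (1.44 to 1.68), Hey1 2.06-fold (1.65 to 2.56) at 33.1 against 16.1 CPM, and Heyl 1.69-fold (1.26 to 2.26) at 17.3 against 10.3 CPM. For each of these genes both technical replicates of the E11.5 KO, here named runs, lay above both runs of the XY control. Dll1, for example, was at 51.1 and 52.4 CPM in the KO runs and at 19.7 and 16.4 in the control runs. In the E11.75 KO, Jag1 at 128, Hey1 at 12.4 and Heyl at 12.7 CPM lay within a fold of 1.5 of the XY control, and Dll1 was 2.20-fold lower (1.47 to 3.41). With thinning to 3000 UMIs, a Dll1 UMI was held by 3.54% of tubule cells in the XY control, 8.65% in the E11.5 KO, 2.35% in the E11.75 KO and 2.57% in the XX control, against 0.269% of coelomic epithelial cells in the XY control. Unthinned, these shares were 5.81%, 14.8%, 2.91%, 6.44% and 0.271%.

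The makeup of the tubules moved with these values. The authors' annotation divides them into 3 subclusters. Subcluster 1 held 31.3% of tubule cells in the XY control, 4.78% in the E11.5 KO, 33.4% in the E11.75 KO and 25.5% in the XX control. Subcluster 3, which held the most Jag1 and Dll1 in every sample, made up 45.1%, 65.7%, 30.5% and 27.5%. Within subcluster 3, Dll1 was 31.6 CPM in the XY control, 63.3 in the E11.5 KO, 20.2 in the E11.75 KO and 22.8 in the XX control, so that the E11.5 KO remained the highest, 2.0-fold over the XY control (1.62 to 2.47). Jag1 within subcluster 3 was 254, 301, 298 and 146 CPM, a ratio of 1.18 (1.09 to 1.28) between the E11.5 KO and the XY control. Hey1 within it had a ratio of 1.36 (1.04 to 1.78) and Heyl of 1.02 (0.721 to 1.44). In subcluster 2 the counts were low, with Dll1 at 4.57 CPM from 8 UMIs in the XY control and 27.3 from 36 in the E11.5 KO. Hey1 there was 13.1 CPM from 23 UMIs and 45.5 from 60, Jag1 16.6 from 29 and 34.2 from 45, and Heyl 9.72 from 17 and 25.8 from 34, each pair under 100 UMIs and with intervals of the ratio above 1. Notch3, which was not called in tubules as a whole, was the gene called in that subcluster, at 48.6 and 94.1 CPM. With the subclusters of both samples weighted by their shares of the XY control's UMIs, Dll1 was 2.07-fold and Hey1 1.70-fold higher in the E11.5 KO, while Jag1 at 1.17 and Heyl at 1.25 fell within the fold, leaving 2 genes of 8. In this weighting subcluster 1 counts for 32.2% of each value, and in the E11.5 KO it held 44 cells, under the minimum of 50, with 2 UMIs of Dll1, 4 of Hey1 and 0 of Heyl.

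**Figure D2:**
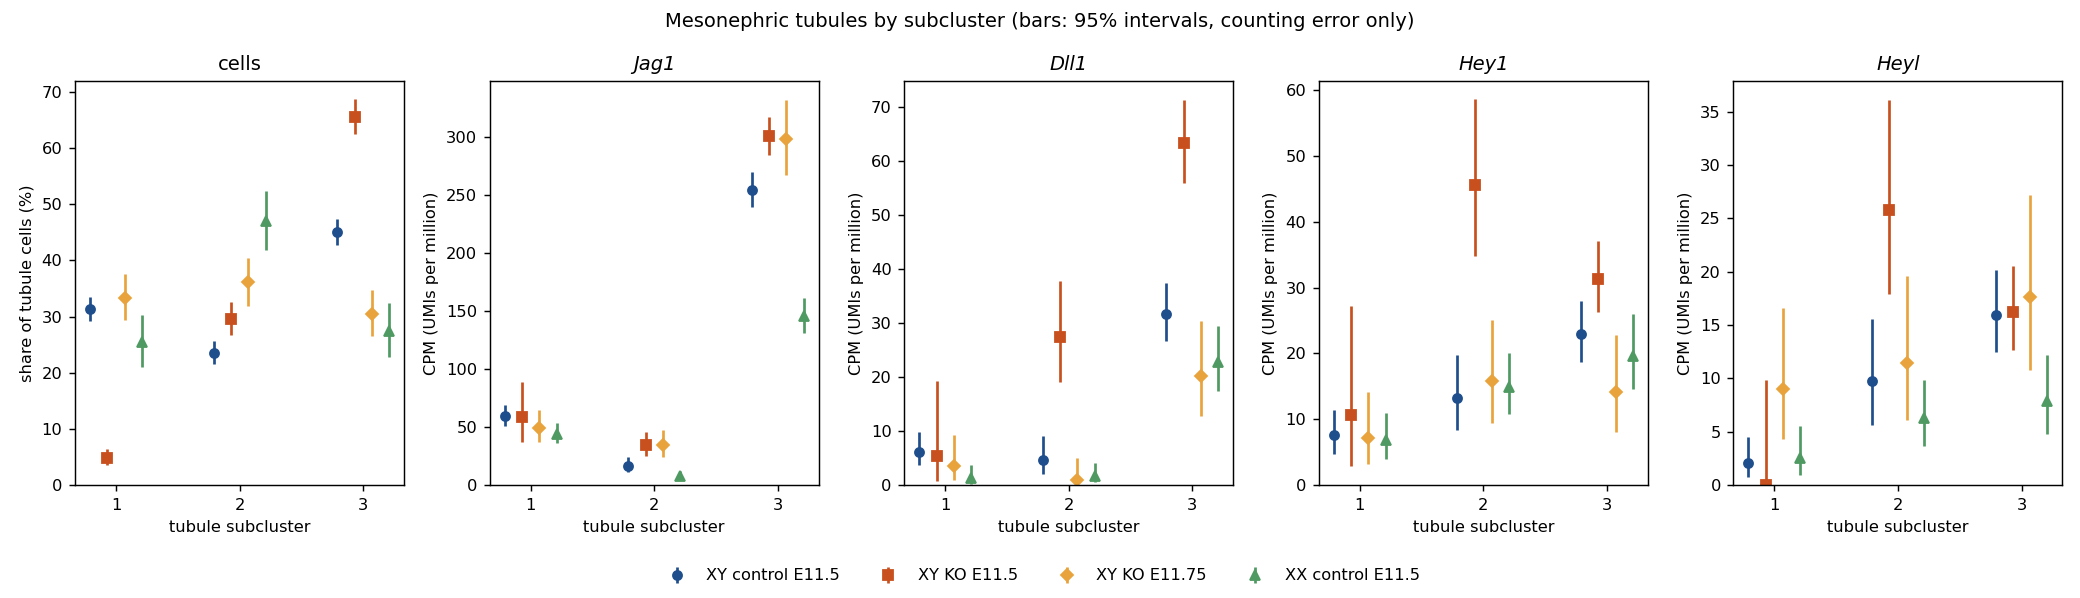
Share of tubule cells in each deposited subcluster (left, percent with 95% Clopper-Pearson intervals) and CPM of Jag1, Dll1, Hey1 and Heyl within each (with 95% Poisson intervals), by sample. Subcluster 1 falls to 4.78% in the E11.5 KO, and Dll1 in subcluster 3 is 63.3 CPM there against 20.2 to 31.6 in the other samples.

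In mesonephric mesenchyme, 0 genes were higher and 1 of 8 was lower in the E11.5 KO, against 2.04% and 4.50% of all genes there. Jag1 fell from 49.7 to 32.0 CPM, 1.55-fold (1.45 to 1.66). Both KO runs, at 34.1 and 30.0 CPM, lay below both control runs at 51.0 and 48.2. Here too the subclusters had shifted, with subcluster 1 at 38.9% of cells in the XY control, 27.1% in the E11.5 KO, 49.2% in the E11.75 KO and 32.0% in the XX control. Jag1 was lower within subcluster 1 (72.7 to 45.8 CPM), subcluster 2 (45.2 to 32.9) and subcluster 4 (59.0 to 23.5), and in subcluster 3 it was 21.4 and 22.0 CPM. Weighted in the same way it was 34.0 CPM in the E11.5 KO, a log2 ratio of -0.55 and so just within the fold, as it was with TMM factors at -0.53. Mesenchymal Jag1 of the E11.75 KO was the highest of the samples at 68.2 CPM.

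In endothelial cells 1 of 7 genes was higher and 3 were lower in the E11.5 KO, against 1.38% and 4.51% of all genes there. Dll4 was 1.57-fold higher (1.32 to 1.87), with 80.0 and 77.7 CPM in the KO runs and 51.1 and 49.6 in the control runs. Dll4 in the E11.75 KO was 1.85-fold above the XY control (1.46 to 2.32). The XX control was the lowest of the samples, so that both KO samples lay above both controls for this gene. With thinning to 3000 UMIs, the shares of endothelial cells with a Dll4 UMI were 13.9%, 17.8%, 21.7% and 6.25% in the usual order, and the intervals of the XY samples overlapped. Their unthinned shares were 19.0%, 41.3%, 33.8% and 25.5%, with median depths of 4796, 8374, 5343 and 17632 UMIs per cell.

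The endothelial genes that were lower in the E11.5 KO had few UMIs. Notch3 fell from 15.7 CPM (86 UMIs) to 6.55 (21 UMIs), 2.40-fold (1.47 to 4.07). Dll1 fell from 18.4 to 8.73 CPM, 2.11-fold (1.38 to 3.33), and Jag1 from 26.4 to 16.5 CPM, 1.60-fold (1.16 to 2.24). For Jag1 the runs overlapped, with 22.1 and 10.7 CPM in the KO and 32.6 and 20.8 in the control. These genes stood at 15.2, 20.6 and 26.8 CPM in the E11.75 KO, each within the fold of the XY control. Notch1, Hes1 and Hey1 stayed within the fold in the E11.5 KO. The summed level of 7 mural markers in these cells was 98.3 CPM in the XY control and 77.0 to 85.9 in the other samples. Against the XY control, 5 of these 7 were lower in the E11.5 KO, with Cspg4 at 0 and Acta2 and Tagln above, 4 were lower in the E11.75 KO, and 6 in the XX control. That of 6 arterial markers was 586, 453, 639 and 447 CPM, all 6 being detected in each sample. Of the 6, 5 were below the XY control in the E11.5 KO (all but Bmx), 4 in the E11.75 KO (all but Efnb2 and Unc5b) and 6 in the XX control. The part of these cells in the Notch pathway values was not tested, and fewer arterial or mural cells and less RNA per cell cannot be told apart in summed counts.

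**Figure D3:**
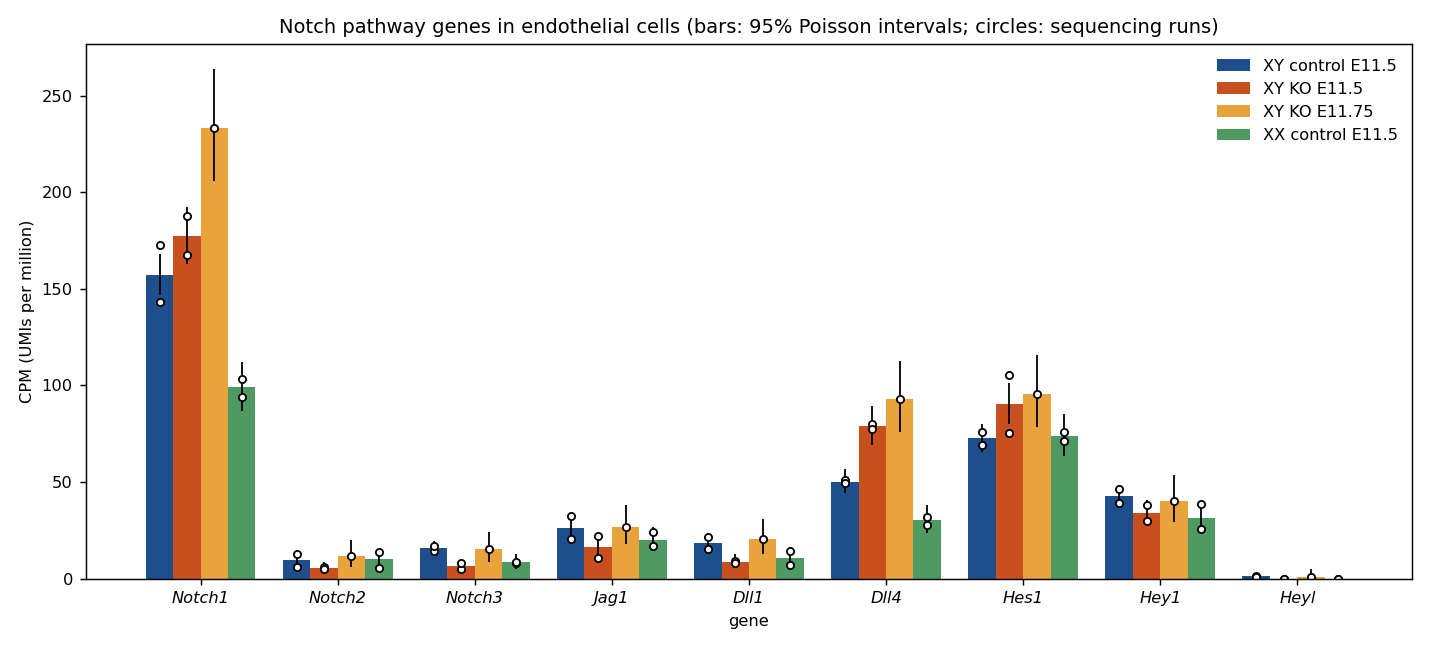
Levels in endothelial cells (CPM, y axis from 0) by gene and sample, with 95% Poisson intervals. Circles, labelled sequencing runs, are single technical replicates. Dll4 rises from 30.3 CPM in the XX control to 50.3, 78.9 and 93.0 in the XY control, the E11.5 KO and the E11.75 KO.

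The remaining calls in the E11.5 KO lay mostly in gonadal types. Notch3 in pre-supporting cells was 9.77 CPM in the XY control, 19.1 in the E11.5 KO, 16.6 in the E11.75 KO and 10.3 in the XX control. Both KO samples were above both controls, 1.95-fold (1.45 to 2.64) and 1.70-fold (1.22 to 2.36) over the XY control. Hey1 in interstitial progenitors, the precursors of Leydig cells, was 24.2, 46.3, 36.8 and 23.6 CPM, again higher in both KO samples, by 1.91-fold (1.52 to 2.41) and 1.52-fold (1.15 to 2.01). The E11.75 calls of Notch3 and Hey1 ended with TMM factors, given below. Notch1 in germ cells was 16.9, 29.3, 32.1 and 15.2 CPM, with ratios of 1.73 (1.25 to 2.39) and 1.90 (1.34 to 2.66). Dll3 in pre-supporting cells was 8.88, 5.14, 4.14 and 7.82 CPM, 1.73-fold lower in the E11.5 KO (1.12 to 2.73). Hes1 in coelomic epithelium was 76.8, 43.1, 66.9 and 66.6 CPM, so the E11.5 KO alone was low, 1.78-fold under the XY control (1.58 to 2.01). Dll3 in adrenosympathetic cells was 1.86-fold lower (1.45 to 2.40), and Notch1 in mesonephric epithelium 1.56-fold higher (1.01 to 2.48) from 73 and 30 UMIs.

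**Figure D4:**
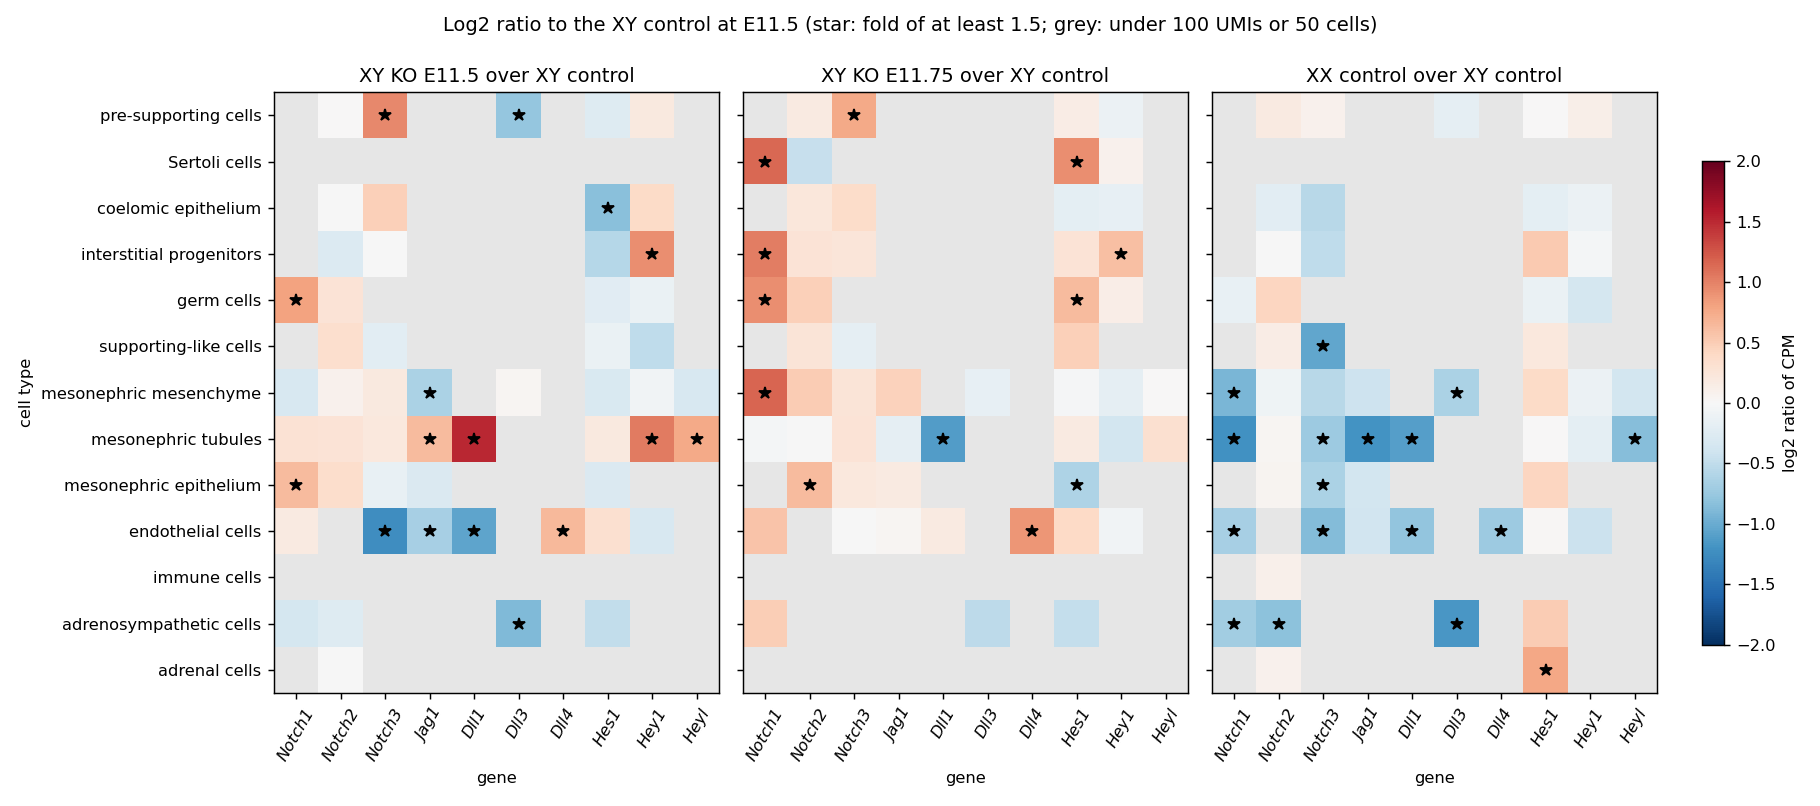
Log2 ratio of each gene (x axis) in each cell type (y axis) to the XY control, for the E11.5 KO, the E11.75 KO and the XX control; colour is the log2 ratio, stars mark a fold of at least 1.5 and grey marks pairs under 100 UMIs or 50 cells. Dll4 in endothelial cells is starred as higher in both KO samples and as lower in the XX control.

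The E11.75 KO was set against the same XY control of the earlier stage, so that stage and deletion cannot be told apart. Of 110 pairs 54 entered, 10 higher and 2 lower, against 15.0% higher and 7.04% lower among 94930 pairs of all genes. The median log2 ratio of all genes was itself above 0 in every type, 0.11 to 0.19. With TMM factors, which scale samples on the bulk of the genes, the split of the Notch genes was 6 higher and 5 lower. Shares over all genes were counted without these factors only, so the TMM splits here and below have no such share beside them. The higher calls that ended with TMM factors were Notch3 in pre-supporting cells at a log2 ratio of 0.56, Hey1 in interstitial progenitors at 0.45, Hes1 in germ cells at 0.35 and Notch2 in mesonephric epithelium at 0.45. Notch1 made up 4 of the 10 higher pairs. In mesonephric mesenchyme Notch1 was 19.3 CPM in the XY control, 15.5 in the E11.5 KO, 43.4 in the E11.75 KO and 10.2 in the XX control, 2.25-fold over the XY control (2.02 to 2.50). In interstitial progenitors it was 12.2, 6.75, 24.9 and 7.16 CPM. In Sertoli cells Notch1 was 16.4 CPM in the XY control and 36.0 in the E11.75 KO, and Hes1 51.5 and 98.4. The summed level of 8 Sertoli markers in these cells was 2616 and 1670 CPM, and pre-supporting cells held Hes1 at 95.1 and 105.2 CPM. With pre-supporting and Sertoli cells pooled, the log2 ratio of Hes1 was 0.38, within the fold, and that of Notch1 0.68, beyond it. In the same pool Notch1 was at -1.18 in the E11.5 KO and -1.32 in the XX control, over the XY control. Sertoli cells in the pool numbered 752 in the XY control, 24 in the E11.5 KO, 168 in the E11.75 KO and 2 in the XX control. The part of the cells' makeup in these values was not tested. Hes1 fell in mesonephric epithelium from 90.6 to 59.1 CPM, 1.53-fold (1.30 to 1.82). The other higher pairs were Hes1 in germ cells, 1.53-fold with an interval of 0.966 to 2.35, and Notch2 in mesonephric epithelium, 1.54-fold (1.29 to 1.84).

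Between the KO samples, 42 of 100 pairs entered, with 6 higher and 3 lower in the E11.75 KO, against 22.2% higher and 6.84% lower among 79169 pairs. All 3 lower pairs were in tubules, where 20.6% of all genes were higher and 6.01% lower. The later sample was lower in Dll1 by 6.26-fold (4.24 to 9.57), in Hey1 by 2.67-fold (1.91 to 3.82) and in Jag1 by 1.77-fold (1.59 to 1.98). The subcluster shares given above differed between these samples too, and within subcluster 3 Jag1 was 301 and 298 CPM while Dll1 was 3.13-fold lower in the later sample (2.04 to 5.02). With the subclusters weighted as before, the E11.5 KO and the E11.75 KO held Dll1 at 37.7 and 11.1 CPM, Hey1 at 27.4 and 12.2, and Jag1 at 171 and 167, so that Jag1 was then within the fold. Of the higher pairs, 3 were of Hes1, in coelomic epithelium, interstitial progenitors and supporting-like cells (1.52-fold to 1.79-fold). The others were Notch1 in interstitial progenitors at 3.69-fold (2.42 to 5.73) and in mesenchyme at 2.79-fold (2.50 to 3.12), and Jag1 in mesenchyme at 2.13-fold (1.96 to 2.32). The split was 3 higher and 8 lower with TMM factors, under which the calls of Hes1 ended, and 4 and 4 when Gm42418 and the globin, ribosomal protein and mitochondrial genes were left out of the totals.

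The XX control was set against the XY control as the comparison of the sexes at E11.5, but the samples also differed in breeding, depth and cell filters. Of 120 pairs 54 entered, and 1 was higher and 16 lower in the XX control, against 1.89% and 9.53% of 98352 pairs. With TMM factors the split was 3 higher and 10 lower, and the calls of Notch1 and Dll4 in endothelial cells, Notch1 in adrenosympathetic cells, Notch3 in tubules and mesonephric epithelium and Dll3 in mesenchyme ended, at -0.58 to -0.52. Tubules held 5 of the lower pairs, against 1.78% higher and 13.7% lower among all genes there: Notch1 by 2.33-fold (2.04 to 2.67), Jag1 by 2.29-fold (2.06 to 2.54), Dll1 by 2.15-fold (1.61 to 2.91), Heyl by 1.82-fold (1.26 to 2.67) and Notch3 by 1.65-fold (1.43 to 1.91). The makeup of the tubules differed here too, with subcluster 3 at 45.1% of tubule cells in the XY control and 27.5% in the XX control. Weighted as before, Notch1 was 51.4, Jag1 86.3 and Dll1 11.81 CPM in the XX control, and the 5 genes were lower by 1.54-fold (Dll1) to 1.76-fold (Heyl). In tubules as a whole Hes1 was 167 CPM in both samples and Notch2 73.3 and 75.3. Endothelial cells held 4, against 0.913% higher and 11.6% lower there: Notch3, Dll1, Dll4 and Notch1, lower by 1.59-fold to 1.85-fold. Of these, Notch3 rested on 21 and 86 UMIs and turned to a log2 ratio of 0.12 when only cells with 3000 to 30000 UMIs were used. In adrenosympathetic cells Dll3 was lower by 2.24-fold (1.82 to 2.77), Notch2 by 1.78-fold and Notch1 by 1.63-fold, against 1.60% higher and 12.3% lower among all genes there. Also lower were Notch3 in supporting-like cells, 32.2 CPM in the XY control and 15.3 in the XX control, and Notch1 in mesonephric mesenchyme, 19.3 and 10.2. The higher pair was Hes1 in adrenal cells, 31.5 CPM in the XY control and 53.9 in the XX control.

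Across all genes, the length of the 3′ UTR was set against the ratios. Spearman's rho between UTR length and log2 ratio was -0.19 to 0.10 over the cell types in the E11.5 KO, above 0 in germ and immune cells and below in the others, 0.33 to 0.45 in the E11.75 KO and -0.34 to -0.04 in the XX control, all relative to the XY control, and 0.29 to 0.50 in the E11.75 KO relative to the E11.5 KO. Genes within a sample are not independent, and these values are descriptions. The UTRs of the 10 genes were 368 bases long for Dll3 and Hes1 and up to 3245 for Heyl, with 1628 for Notch1, against a median of 1068 over all genes. The part of UTR length in the Notch pathway values was not tested.

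The rest of the pathway was followed with a list of 64 genes, of which 63 were in the table. It held other receptors and ligands, enzymes of glycosylation and ligand endocytosis, proteases, nuclear factors, inhibitors and further genes listed as targets. Beside HES and HEY genes, the last group took in Bhlhe40, Myc, Ccnd1, Id1, Id2 and Id3. Whether these respond to Notch in these cells was not tested. In the E11.5 KO, 471 of 756 pairs entered, 19 higher (4.03%) and 20 lower (4.25%), against 2.11% and 5.13% of all genes, or 22 and 11 with TMM factors. The shares of all genes in this paragraph were counted without TMM factors. Of 458 that entered in the E11.75 KO, 122 were higher (26.6%) and 21 lower (4.59%), against 15.0% and 7.04%, or 51 and 36 with TMM factors. In the XX control 471 entered, 8 higher (1.70%) and 74 lower (15.7%), against 1.89% and 9.53%, or 12 and 44 with TMM factors. Between the KO samples 381 entered, 141 higher (37.0%) and 19 lower (4.99%) in the later one, against 22.2% and 6.84%, or 41 and 36 with TMM factors. In tubules of the E11.5 KO, 5 of 52 genes were higher (9.62%) and 2 lower (3.85%), against 2.48% and 6.05% of all genes there. The 5 genes of this list with the highest level in any type of the XY control were Dlk1, Id3, Ccnd1, Id1 and Id2, the first and last in adrenal cells and the others in adrenosympathetic cells.

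The genes of this list called alike in both KO samples over the XY control, which the comparisons share, are given next. The share of all genes called alike was not counted, so their number cannot be read as few or many. Dlk1, a non-canonical ligand-like protein, was 388 CPM in mesonephric mesenchyme of the XY control and 261 in the XX control, against 649.9 in the E11.5 KO and 639.7 in the E11.75 KO. In mesonephric epithelium Dlk1 was 852, 1306, 1380 and 742 CPM in the usual order of samples. Ccnd1, the G1 cyclin D1, was 230.3 CPM in endothelial cells of the XY control, 388 in the E11.5 KO, 527 in the E11.75 KO and 183 in the XX control. Both KO samples lay above both controls, and Ccnd1 did so in mesonephric epithelium too, at 177 and 183 CPM against 114 and 81.9. In that type of the E11.75 KO the log2 ratios of Dlk1 and Ccnd1 were 0.70 and 0.68, against 0.585 for the fold. TMM factors shift all genes of a type and sample alike, and there they ended the call of Notch2. The same shift takes Dlk1 and Ccnd1 below the fold there, so their calls in that type of the E11.75 KO end too. For the other calls of this paragraph, values with TMM factors are not given. Bhlhe40 in coelomic epithelium was lower in both KO samples, by 0.66 and 1.22 on the log2 scale. Nrarp, the gene with the highest Pearson's r to Notch1 and to Dll1, was 21.2 CPM in tubules of the XY control, 35.6 in the E11.5 KO, 8.87 in the E11.75 KO and 15.1 in the XX control. In endothelial cells Nrarp was 49.1, 84.5, 60.8 and 40.4 CPM. Nrarp was singled out after its values were seen, and the sums behind its likeness to Notch1 and Dll1 include these.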

How the data were processed

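Gonads with mesonephros were dissociated, fixed in methanol and profiled with droplet-based 3′ single-cell RNA-seq. Per the submitters' notes and the study's methods, the authors aligned and counted reads with Cell Ranger 6.1.1 against mm10 with an added Sry exon, filtered cells and doublets, integrated the samples in Seurat and named the clusters. The deposited values are UMI counts without normalization, and all 126435795 nonzero values were whole. The deposited cell types were kept, most of them under other names. "Bipotential progenitors" were read as pre-supporting cells, "Supporting" as Sertoli cells, "Epithelial" as coelomic epithelium and "Interstitial cells" as interstitial progenitors. "Mesonephros" was read as mesonephric mesenchyme and "Epithelial mesonephros" as mesonephric epithelium. "PGCs" were read as germ cells, "SLCs" as supporting-like cells, "Adenosympathic cells" as adrenosympathetic cells and "Adrenal gland" as adrenal cells. No cell was removed here. Between any pair of runs, the study's technical replicates, at most 0.687% of the cells of the smaller run shared a barcode.

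UMI counts were summed per deposited cell type and sample, and CPM computed from the total of all genes. Intervals are exact (Poisson for CPM, Clopper-Pearson for shares, binomial for ratios). Those of CPM and ratios were tried on simulated Poisson counts, which hold no spread between cells, embryos or libraries. This checks the code and not how well the intervals hold in these data. Log2 ratios used a prior count of 0.5, and intervals of ratios no prior. Types needed 50 cells in both samples. A level that 3 counts would give is the floor. The depth per type and sample sets the width of each interval. Runs are technical replicates, and neither runs nor cells are replicates of a condition. Members and lists were chosen with earlier results of these data known. Text names all members, the 3 most similar genes of each, and other pathway genes with the highest 5 levels or called alike in both KO samples in any type (the rule named pre-supporting cells, endothelium and mesenchyme, and the other types were added after their values were seen). Alternatives were TMM factors (edgeR 4.0.16, R 4.3.3), other totals, minimum counts of 50, 500 or none, a fold of 2, the mean over cells, a depth window, a prior of 5, single runs, Spearman's rho and all annotated 3′ UTRs. Weighting by subcluster was added after seeing the data. Sums and statistics used Python 3.11.15 with scipy 1.17.1. Promoters and proteins were not analysed here.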

Additional observations from a re-analysis of the deposited data

Results flagged for a closer look

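Some genes were called in opposite directions in different cell types under the same comparison, with intervals off 0 in both. In each case the difference between the types was not tested, since there was 1 sample per group. In the E11.5 KO over the XY control, the log2 ratio of Jag1 was 0.64 in mesonephric tubules, -0.64 in mesonephric mesenchyme and -0.67 in endothelial cells. For Dll1 it was 1.51 in mesonephric tubules and -1.06 in endothelial cells, and for Notch3 0.96 in pre-supporting cells and -1.23 in endothelial cells. In the E11.75 KO over the XY control, Hes1 had 0.94 in Sertoli cells and -0.62 in mesonephric epithelium. In those Sertoli cells the summed level of Sertoli markers was 2616 CPM in the XY control and 1670 in the E11.75 KO, and with pre-supporting cells added the log2 ratio of Hes1 was 0.38. In the E11.75 KO over the E11.5 KO, Jag1 had 1.09 in mesonephric mesenchyme and -0.82 in mesonephric tubules. With the subclusters weighted alike, Jag1 in the E11.5 KO over the XY control had 0.23 in tubules and -0.55 in mesenchyme, both within the fold, and tubule Jag1 was 171 CPM in the E11.5 KO and 167 in the E11.75 KO. In endothelial cells the runs overlapped for Jag1, and 5 of 7 mural and 5 of 6 arterial markers were below the XY control in the E11.5 KO. The part of these cells was not tested.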

How the results depend on the processing

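No paired analysis was possible because each group had 1 sample. The calls were 16, 12, 17 and 9 pairs in the E11.5 KO, the E11.75 KO and the XX control over the XY control and between the KO samples. TMM factors gave 15, 11, 13 and 11, of which 15, 8, 11 and 6 were called the same way. A fold of 2 left 4, 4, 5 and 5 and a minimum of 500 UMIs left 4, 3, 6 and 5, while no minimum gave 46, 40, 59 and 41. Shares over all genes were counted with the reported settings only. Counts under any other setting, here or above, have no such share beside them and cannot be read as few or many. A minimum of 50 UMIs gave 20, 27 and 16 in the last 3 comparisons. Single runs hold fewer UMIs. Run 1 gave 9 calls in the E11.5 KO and 5 in the XX control. Run 2 gave 10, 6 and 10 in the E11.5 KO, the E11.75 KO and the XX control. Of the reported calls, 9, 8, 5 and 8 were called the same way in run 1 and 8, 5, 7 and 6 in run 2. Some calls of run 2 were thus not among the reported ones. Cells with 3000 to 30000 UMIs gave 10 in the XX control. Of the 16, 12, 17 and 9 reported calls, 12, 9, 10 and 8 were called the same way with these cells. With them 1 value turned, Notch3 in endothelial cells of the XX control, to 0.12. Of 381 recomputed log2 ratios, 360 stayed inside the interval of the reported value and 20 moved beyond it without turning. For the other pathway genes, TMM factors gave 87 calls in the E11.75 KO (143 reported) and 77 between the KO samples (160 reported), and a fold of 2 gave 6, 26, 11 and 25. In the E11.5 KO, tubules had 4 calls, 2 with weighted subclusters, 1 in subcluster 3 alone (Dll1) and 1 in subcluster 2 alone (Notch3, not among the 4), and mesenchyme had 1 and 0 with weighting. With pre-supporting and Sertoli cells together, 12 of 18 log2 ratios stayed inside the interval and 6, of Notch2 and Hes1, moved beyond it. Notch1 and Jag1 did not enter in pre-supporting cells alone and entered in this pool over the XY control. There Notch1 was lower in the E11.5 KO (-1.18) and the XX control (-1.32) and higher in the E11.75 KO (0.68). Jag1 was lower in the E11.5 KO (-0.75). Dll3 was lower in both KO samples (-0.86 and -0.63) and Notch3 higher (0.84 and 0.59). The pool held 752, 24, 168 and 2 Sertoli cells, and their part was not tested. By the mean over cells, the highest type was the same for 37 of 40 genes and samples. By Spearman's rho, 11 of 30 nearest genes were shared. All annotated 3′ UTRs gave sites in the same number of genes. The cause of these moves was not tested. Counts of Dll4, Heyl, Dll1 and Dll3 were low in many types outside their main ones, Dll4 being at 0 in 1 of 13, 3 of 12, 7 of 11 and 8 of 12 types. Absence of the RNA and too little depth cannot be told apart there.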
